A study of Mus musculus with 3 samples.

Results

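The p53 network and target genes are 34 mouse genes chosen by name: Trp53, its regulators, and genes known from earlier work as p53 targets or as members of the same stress response. They were found by matching their symbols to the gene names of the array, and all 34 had a probe there, 34 of 34827 gene names and 43 of 55657 probes. RNA was measured in HoxA9-Meis1 AML cells, a murine acute myeloid leukaemia named for the transcription factors HoxA9 and Meis1, of C57Bl/6 strain and taken from bone marrow. The groups were cells given Pyrydopyrazine A2 at 3.4 µM, cells given 10 µM each of retinoic acid (RA, the all-trans form) and vitamin D3 in its 1α-hydroxy form (D3V), and untreated cells, all kept in SFEM medium for 24 h. RA and vitamin D are ligands of nuclear receptors and are known as inducers of myeloid differentiation. There was 1 array per condition, a one-colour Agilent array, so no difference has a replicate, no test was possible and no p-value is given.

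The names of the treated arrays rest on the scanner files, and the authors' value table gives them the other way round. Over all spots, the table's column labelled A2 ranked them exactly as the RA plus D3V scanner file did (Spearman rho 1), and its column labelled RA plus D3V as the A2 scanner file did (rho 1). Cyp24a1 and Cyp26a1, enzymes that degrade vitamin D and retinoic acid and are known to be induced by them, were at least 1296-fold and at least 83.5-fold higher on the A2-labelled array than on the untreated array, and neither was well above background on the RA+D3V-labelled array. Which source is right was not settled, so each array is named below by its scanner-file label, and the treatments change places in every statement if the value table is right. The control column of that table had the ranks of none of the scanner files (best rho 0.9356, with the untreated array) and is used below as a second control.

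p53, the protein of Trp53, is a transcription factor that is kept scarce by the ubiquitin ligase Mdm2 and held inactive by its relative Mdm4. When DNA damage, oncogene activity or nutrient stress frees it, it binds DNA as a tetramer and raises transcription of genes that stop the cell cycle, repair DNA, limit growth signalling and kill the cell. Several targets, Mdm2 among them, feed back on p53. In myeloid leukaemia Trp53 is often intact, with its pathway restrained by such inhibitors, and many of its target genes are also controlled by other factors, FoxO proteins among them.

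The DNA element bound by a p53 dimer, the p53 half-site, was searched in the promoters because it is the sequence feature that p53 targets are known to share. The consensus has 10 bases (purines, C, a pair of A or T bases, G, pyrimidines) and reads alike on both strands, so a single search covers both, and overlapping matches were allowed. RefSeq promoters (GRCm38.p6) of 250 bases before to 50 bases after the start were at hand for 27 of the 34 genes, all but Rrm2b, Perp, Tnfrsf10b, Xpc, Trp53inp1, Zmat3 and Ddb2. A half-site stood in 11 of these 27 promoters (40.7%) and in the promoters of 2582 of the 27025 gene symbols of the table (9.55%). A gene was counted when any of its promoters matched, and the share among protein-coding symbols alone is not at hand. A match is a description of letters and not a site of binding, and functional p53 elements are often pairs of half-sites that lie outside this window. The 11 matches are given with their flanks as 30-base windows, with the half-site in capitals.
Aen, chr7:78895927-78895956, plus strand: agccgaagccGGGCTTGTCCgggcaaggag
Ccng1, chr11:40755452-40755481, minus strand: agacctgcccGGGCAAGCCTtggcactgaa
Ei24, chr9:36797325-36797354, minus strand: cgtgcggcccGGGCATGCCCagtgtgggcg
Gadd45a, chr6:67037428-67037457, minus strand: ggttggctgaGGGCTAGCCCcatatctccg
Gtse1, chr15:85859945-85859974, plus strand: gagcaagttgGGGCTTGCCTctgacttgcc
Mdm2, chr10:117710925-117710954, minus strand: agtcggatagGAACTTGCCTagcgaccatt
Polk, chr13:96519399-96519428, minus strand: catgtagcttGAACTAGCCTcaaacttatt
Ppm1d, chr11:85311112-85311141, plus strand: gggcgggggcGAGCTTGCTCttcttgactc
Rchy1, chr5:91962627-91962656, minus strand: cactatgacaGAGCTTGTCTcctcaaggtg
Sesn1, chr10:41887256-41887285, plus strand: cttggccttcAAGCTTGTTTttgctggcct
Trp53, chr11:69580274-69580303, plus strand: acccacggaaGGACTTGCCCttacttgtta
The first base of the half-site lay closest to the start in Gtse1 and Ei24, at position 10 and position -10, and farthest from it in Polk, at -231.

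Of the 9 members with a pair of probes, Trp53inp1 and Mdm4 lay at least 2-fold above untreated on the RA+D3V-labelled array with both probes, and Btg1 with its dimmer probe alone. The first 30 bases of each 60-base probe are shown, because separate stretches of the same transcript give the nearest thing to a repeat that these arrays hold (mm9 positions of the whole probe, from the array's annotation).
Trp53inp1 brighter probe, chr4:11101174-11101233, plus strand: gtgtgtttatgggcacaatgttttctctca
Trp53inp1 dimmer probe, chr4:11092530-11092589, plus strand: aactcctgtcctggtctcagtgaggcgagt
Mdm4 brighter probe, chr1:134886426-134886485, minus strand: gacccattaagctctgtttacagccttgaa
Mdm4 dimmer probe, chr1:134888407-134888466, minus strand: acagatattttttctgagcagaaagctgaa
Btg1 brighter probe, chr10:96082071-96082130, plus strand: gagtctttcccacaaaccaccatctatttt
Btg1 dimmer probe, chr10:96085358-96085417, plus strand: gcagctttaaatcagtcggatttatgaata
For Trp53inp1 the brighter probe gave log2 differences of 1.45 (A2-labelled array minus untreated) and 2.60 (RA+D3V-labelled array minus untreated), and the dimmer one 1.82 for A2 and 2.97 for RA+D3V.

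A relative signal below is the log2 of the processed intensity over the 75th percentile of that array, so 0 is the level of a moderately bright probe, and a difference of 1 on this scale is 2-fold. Levels of different genes come from different probes and are not compared. A gene was measured in a comparison when its brightest probe was flagged as well above background on each array of the pair, and it was counted as higher or lower at 2-fold or more. Of the 34 genes, 30 were above background on all 3 arrays, Plk2, Perp and Rrm2b on some, and Eda2r on none. Between 46.0% and 46.8% of the 59305 spots of each array were well above background, and replicate spots of the same probe had a median SD between 0.0630 and 0.0717 (log2). That spread is technical and says nothing of how cultures vary. The difference between the control sources was wider: the value table's control minus the untreated array had an SD of 0.200 over 30 of these genes and 0.284 over 17017 genes, with the widest gaps among the 30 at -0.57 (Trp53) and 0.45 (Mdm4). The value table is quantile normalized and the origin of its control is unknown. This gap therefore mixes processing with sample and is not known to measure how cultures vary. In bulk RNA, fewer cells of a type and less RNA per cell cannot be told apart.

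On the RA+D3V-labelled array, most measured members of each role group except p53 and its regulators lay above the untreated array. No measured member was 2-fold lower. Of 30 members measured, 8 were at least 2-fold higher: Trp53inp1, Mdm4, Btg2, Phlda3, Ccng2, Trp53inp2, Sesn3 and Zmat3. Outside this count, by a bound, Plk2 was at least 2.87-fold higher. Among all 17292 gene names measured there, 7.82% were at least 2-fold higher and 5.04% at least 2-fold lower (6.52% and 5.28% of protein-coding names). Of the members 22 lay above 0, beside 48.3% of all names, and their median difference was 0.56, beside -0.02 over all names. The same 8 genes were 2-fold higher against the second control too. With another background correction (normexp) 5 of the 8 passed 2-fold, as Ccng2, Sesn3 and Zmat3 came to 0.80, 0.90 and 0.99.

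The A2-labelled array showed no such shift against the untreated array: 14 of 31 measured members lay above 0, beside 48% of all names, and the median was -0.21, beside -0.03. Trp53inp2, Trp53inp1, Gadd45a and Ccng2 were at least 2-fold higher, and Trp53 and Gtse1 at least 2-fold lower. These are 4 and 2 of 31, beside 7.96% and 6.4% of 17292 names (8.65% and 7.04% of protein-coding names). Outside these counts, by bounds, Plk2 was at least 58.5-fold higher and Perp at least 2.53-fold lower. Against the second control the 4 genes stayed above 2-fold, whereas Trp53 came to -0.72. With normexp 3 of the 4 passed 2-fold, as Ccng2 came to 0.71. Of the 2 lower genes, Gtse1 came to -0.99 with normexp and Trp53 to -1.09. Both comparisons use the same untreated array, so they are not independent of each other.

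**Figure D1:**
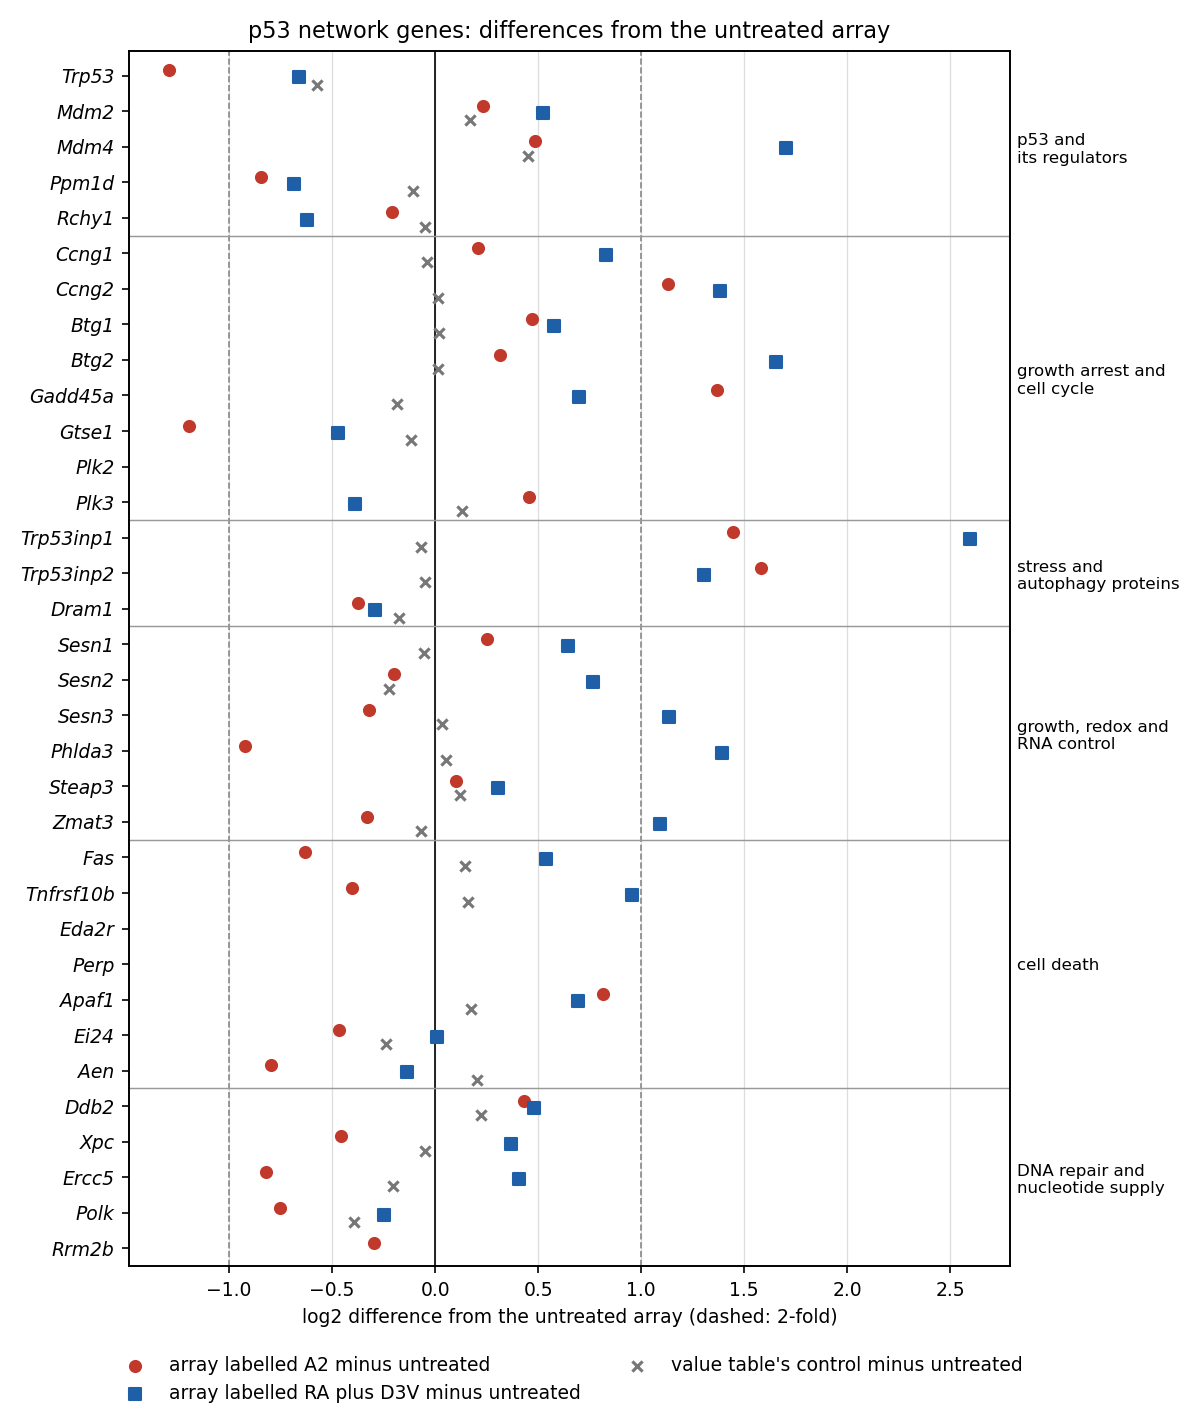
Log2 difference from the untreated array for each member by role: the A2-labelled array (red circles), the RA+D3V-labelled array (blue squares) and the value table's control (grey crosses), with 1 array per condition, no error bars and no symbol where a gene was not measured. Dashed lines mark 2-fold, and 8 blue squares lie at or right of the upper line, none left of the lower one, while the crosses run between -0.57 and 0.45.

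Set directly against each other, the A2-labelled array lay below the RA+D3V-labelled array for most of the network. Of 31 measured members 25 were below 0 and 6 above, and the median was -0.51, beside -0.02 over 17643 names, of which 48.2% lay above 0. Phlda3, Sesn3, Zmat3, Tnfrsf10b, Btg2, Mdm4, Ercc5, Fas and Trp53inp1 were at least 2-fold lower on the A2-labelled array, and Plk2 was the 1 gene at least 2-fold higher. The background for these counts is 4.03% lower and 3.8% higher (3.88% and 4.83% of protein-coding names). This comparison does not use the untreated array.

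**Figure D2:**
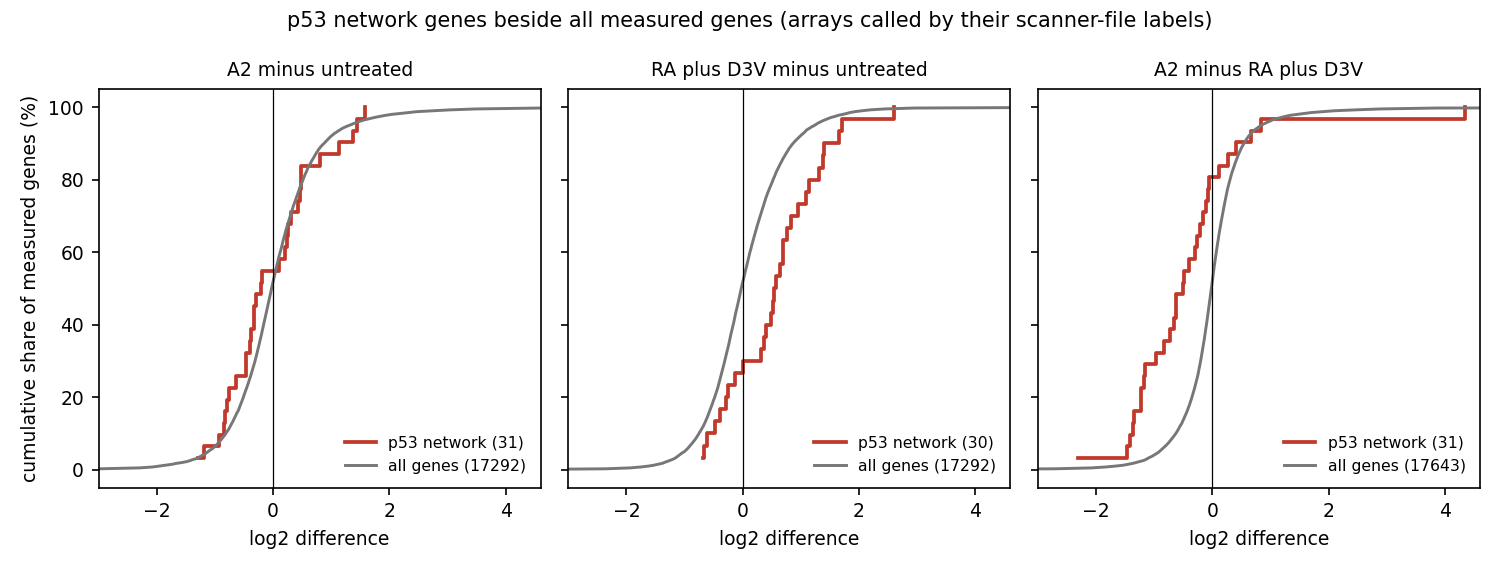
Cumulative share (percent) of measured genes by log2 difference, for the p53 network (red steps) and all measured gene names (grey), in the 3 comparisons. The red steps lie right of the grey curve in the panel of RA plus D3V minus untreated (medians 0.56 and -0.02) and left of it in the panel of A2 minus RA plus D3V (medians -0.51 and -0.02).

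Trp53 itself gave its lowest signal on the A2-labelled array. Its relative signal was -0.41 on the A2-labelled array, 0.22 on the RA+D3V-labelled array and 0.88 on the untreated array, with 0.31 in the second control. The A2-labelled array differed by -1.29 from the untreated array and by -0.72 from the second control, and the RA+D3V-labelled array by -0.66 and -0.09. The A2-labelled array was below both controls, whereas the RA+D3V-labelled array was below the first and within 0.1 of the second on the log2 scale. Mdm2, the ligase that targets p53 for degradation and is itself a p53 target, differed little, at 5.66 on the A2-labelled array, 5.95 on the RA+D3V-labelled array and 5.43 on the untreated array (A2 minus untreated 0.23, RA+D3V minus untreated 0.52).

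Mdm4, the inhibitor of p53 that resembles Mdm2, stood out on the RA+D3V-labelled array. It had -0.24 on the A2-labelled array, 0.98 on the RA+D3V-labelled array and -0.72 on the untreated array, so that the RA+D3V-labelled array was 3.26-fold above the untreated one (1.70) and the A2-labelled array was not 2-fold above it (0.48). The second control, at -0.27, lay close to the A2-labelled array (difference 0.03) and below the RA+D3V-labelled array (1.26). The dimmer probe gave smaller differences from the untreated array, 0.42 for A2 and 1.18 for RA+D3V.

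The other regulators lay below the untreated array without reaching 2-fold. Ppm1d, the phosphatase Wip1 that switches p53 signalling off, had 0.20 on the A2-labelled array, 0.36 on the RA+D3V-labelled array and 1.04 on the untreated array (A2 minus untreated -0.84, RA+D3V minus untreated -0.68). Rchy1, the ubiquitin ligase Pirh2, differed from the untreated array by -0.21 on the A2-labelled array and -0.62 on the RA+D3V-labelled array. The medians of the 5 regulators were -0.21 (A2-labelled array) and -0.62 (RA+D3V-labelled array), and 1 of the 5, Mdm4, was 2-fold higher on the RA+D3V-labelled array.

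**Figure D3:**
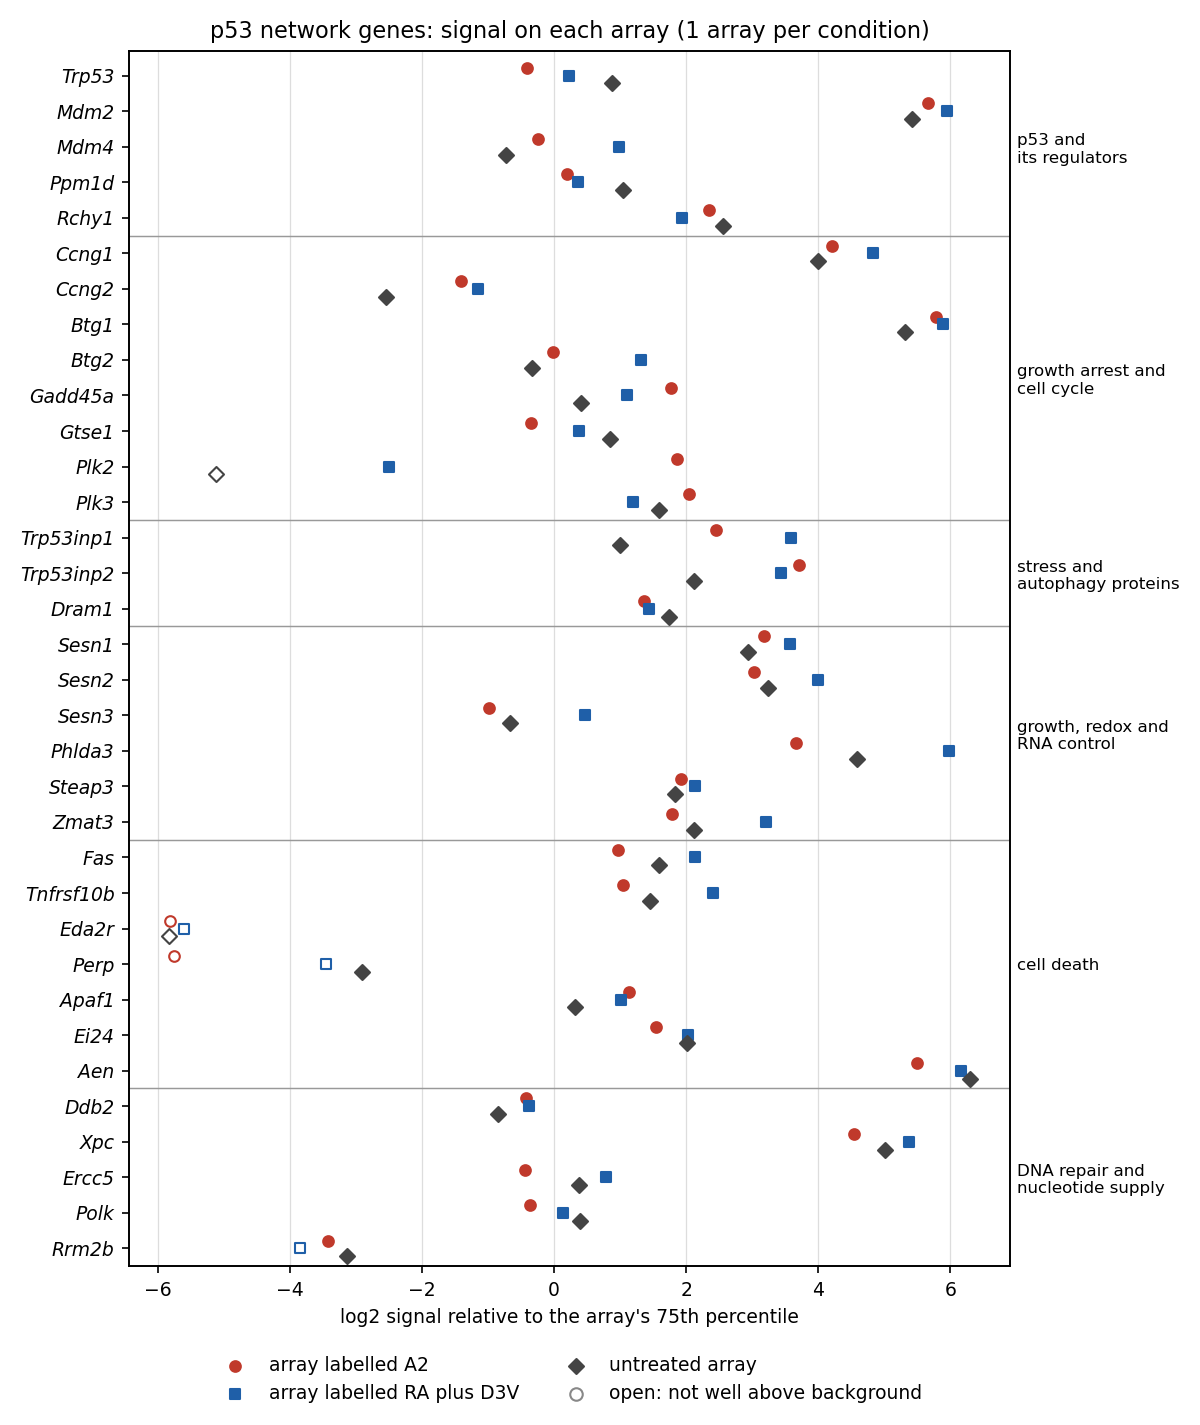
Relative log2 signal (log2 of the intensity over the array's 75th percentile) of each member on the A2-labelled array (red circles), the RA+D3V-labelled array (blue squares) and the untreated array (grey diamonds), grouped by role, with open symbols where the probe was not well above background. Plk2 has the widest spread between arrays, and all symbols of Eda2r are open.

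Plk2, a polo-like kinase that p53 induces, had the largest difference between the arrays. Its relative signal was 1.85 on the A2-labelled array, -2.49 on the RA+D3V-labelled array and -5.12 on the untreated array, where it was not well above background. It was therefore at least 58.5-fold higher on the A2-labelled array and at least 2.87-fold higher on the RA+D3V-labelled array than on the untreated array, and 20.3-fold higher on the A2-labelled array than on the RA+D3V-labelled array (4.35). Plk3, its relative, did not follow it: it had 2.05 on the A2-labelled array, 1.20 on the RA+D3V-labelled array and 1.59 on the untreated array (A2 minus untreated 0.46, RA+D3V minus untreated -0.39).

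Btg2, an antiproliferative gene induced by p53 and by differentiation signals, was 3.15-fold higher on the RA+D3V-labelled array. It had -0.02 on the A2-labelled array, 1.32 on the RA+D3V-labelled array and -0.33 on the untreated array, so the A2-labelled array lay within 2-fold of the untreated one (0.31). Its relative Btg1 had 5.78 on the A2-labelled array, 5.89 on the RA+D3V-labelled array and 5.31 on the untreated array by the brighter probe (A2 minus untreated 0.47, RA+D3V minus untreated 0.58). The dimmer Btg1 probe gave the same direction and larger sizes, 0.71 for A2 and 1.51 for RA+D3V.

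Gadd45a and Gtse1 passed 2-fold on the A2-labelled array and not on the other treated array, although neither was 2-fold apart between the treated arrays. Gadd45a, a growth arrest and DNA damage gene, had 1.77 on the A2-labelled array, 1.1 on the RA+D3V-labelled array and 0.41 on the untreated array (A2 minus untreated 1.37, RA+D3V minus untreated 0.70). Gtse1, a mitotic protein that restrains p53 in G2, had -0.34 on the A2-labelled array, 0.38 on the RA+D3V-labelled array and 0.85 on the untreated array (A2 minus untreated -1.20, RA+D3V minus untreated -0.47). For both genes the RA+D3V-labelled array lay between the others. With normexp the difference of Gtse1 on the A2-labelled array was -0.99.

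The cyclins G, unconventional cyclins, were both highest on the RA+D3V-labelled array. Ccng2, which restrains the cell cycle and is also a FoxO target, had -1.41 on the A2-labelled array, -1.16 on the RA+D3V-labelled array and -2.54 on the untreated array, at least 2-fold above it on both treated arrays (A2 minus untreated 1.13, RA+D3V minus untreated 1.38). With normexp these differences were 0.71 and 0.80, below 2-fold. Ccng1, a direct p53 target that recruits a phosphatase to Mdm2, had 4.20 on the A2-labelled array, 4.82 on the RA+D3V-labelled array and 3.99 on the untreated array (A2 minus untreated 0.21, RA+D3V minus untreated 0.83). Over the arrest genes the medians were 0.46 on the A2-labelled array and 0.70 on the RA+D3V-labelled array.

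The autophagy genes Trp53inp1 and Trp53inp2 were, with Ccng2, the members at least 2-fold above the untreated array on both treated arrays by a measured difference. With normexp Ccng2 was below 2-fold on both. Trp53inp1, a p53 target that promotes arrest, autophagy and death, had 2.44 on the A2-labelled array, 3.59 on the RA+D3V-labelled array and 1.00 on the untreated array. The RA+D3V-labelled array was 6.04-fold above the untreated one, the largest measured difference of the network in that comparison, and 2-fold or more above the A2-labelled array as well (A2 minus RA plus D3V, -1.15). Both probes of the gene gave this -1.15.

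Trp53inp2, an autophagy protein that resembles it, had 3.70 on the A2-labelled array, 3.43 on the RA+D3V-labelled array and 2.12 on the untreated array. Its differences from the untreated array, 1.58 for A2 and 1.31 for RA+D3V, were close to each other. Dram1, a lysosomal protein needed for p53-driven autophagy, lay slightly below the untreated array on both (1.36 on the A2-labelled array, 1.44 on the RA+D3V-labelled array and 1.73 on the untreated array).

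The genes of growth, redox and RNA control all lay above the untreated array on the RA+D3V-labelled array, 6 of 6, with a median of 0.93 and 3 of them at least 2-fold higher. Beside this, 48.3% of all names lay above 0 and 7.82% were at least 2-fold higher. By their brightest probes, these genes lay below the RA+D3V-labelled array on the A2-labelled array, again 6 of 6. Their median was -1.19, the farthest from 0 of the 6 role groups in that comparison. The dimmer Steap3 probe gave 0.42 there, and 48.2% of all names lay above 0. Against the untreated array the A2-labelled array had a median of -0.26.

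Phlda3, which competes with Akt for membrane lipids and so dampens Akt, had 3.66 on the A2-labelled array, 5.97 on the RA+D3V-labelled array and 4.58 on the untreated array. The treated arrays lay on opposite sides of the untreated one (A2 minus untreated -0.92, RA+D3V minus untreated 1.39) and 4.98-fold apart. Zmat3, an RNA-binding zinc finger protein, did likewise with smaller sizes, at 1.78 on the A2-labelled array, 3.20 on the RA+D3V-labelled array and 2.11 on the untreated array (A2 minus untreated -0.33, RA+D3V minus untreated 1.09).

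The sestrins, stress proteins that lower mTORC1 activity, were not alike. Sesn3, known mainly as a FoxO target, had -0.99 on the A2-labelled array, 0.47 on the RA+D3V-labelled array and -0.67 on the untreated array (A2 minus untreated -0.32, RA+D3V minus untreated 1.14). Sesn2, which responds to p53 and to amino acid stress, had 3.03 on the A2-labelled array, 4.0 on the RA+D3V-labelled array and 3.23 on the untreated array (A2 minus untreated -0.20, RA+D3V minus untreated 0.77). Sesn1, the p53-dependent member, had 3.18 on the A2-labelled array, 3.58 on the RA+D3V-labelled array and 2.93 on the untreated array (A2 minus untreated 0.25, RA+D3V minus untreated 0.65). For each of the 3 sestrins the RA+D3V-labelled array was the highest. Steap3, an iron reductase, lay within 0.31 of the untreated array on the RA+D3V-labelled array and within 0.10 on the A2-labelled array by its brighter probe. Its dimmer probe gave 0.57 for A2 and 0.15 for RA+D3V. Between the treated arrays (A2 minus RA+D3V) the brighter probe gave -0.21 and the dimmer one 0.42, so that direction depends on the probe.

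Among the death genes the receptors separated the treated arrays and none was 2-fold from the untreated array where measured. Fas, the CD95 receptor, had 0.96 on the A2-labelled array, 2.13 on the RA+D3V-labelled array and 1.59 on the untreated array (A2 minus untreated -0.63, RA+D3V minus untreated 0.54). Tnfrsf10b, the mouse TRAIL receptor, had 1.05 on the A2-labelled array, 2.41 on the RA+D3V-labelled array and 1.45 on the untreated array (A2 minus untreated -0.40, RA+D3V minus untreated 0.95). Both lay at least 2-fold lower on the A2-labelled array than on the RA+D3V-labelled array (-1.17 for Fas and -1.36 for Tnfrsf10b). Eda2r, a receptor of the same family and a p53 target, had no signal well above background with either of its probes, whatever the array.

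Perp, a membrane protein of p53-dependent death and of desmosomes, was well above background on the untreated array alone. Its relative signal was -5.75 on the A2-labelled array, -3.46 on the RA+D3V-labelled array and -2.91 on the untreated array, which bounds it at least 2.53-fold lower on the A2-labelled array and at least 1.46-fold lower on the RA+D3V-labelled array than untreated. The second control was also at -2.91. No intracellular death gene passed 2-fold from the untreated array. Apaf1, the scaffold of the apoptosome, had a difference of 0.81 on the A2-labelled array and 0.69 on the RA+D3V-labelled array. Aen, an apoptosis-enhancing nuclease, had -0.79 for A2 and -0.13 for RA+D3V, and its second probe gave -0.86 and -0.07. The Aen probes overlap (chr7:86053207-86053266 and chr7:86053197-86053256), so the second is not a separate stretch of the transcript. Ei24, an endoplasmic reticulum protein, had -0.47 for A2 and 0.01 for RA+D3V.

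The repair genes were lower on the A2-labelled array than on the RA+D3V-labelled array in 4 of 4 measured on both, with a median of -0.67. Rrm2b, not well above background on the RA+D3V-labelled array, went the other way, at least 1.35-fold higher on the A2-labelled array. Over all names 48.2% lay above 0 in this comparison. Ercc5, the XPG nuclease of nucleotide excision repair, had -0.44 on the A2-labelled array, 0.78 on the RA+D3V-labelled array and 0.38 on the untreated array (A2 minus untreated -0.82, RA+D3V minus untreated 0.41, A2 minus RA+D3V -1.22). Xpc, the damage sensor of the same pathway, had 4.55 on the A2-labelled array, 5.38 on the RA+D3V-labelled array and 5.01 on the untreated array (A2 minus untreated -0.46, RA+D3V minus untreated 0.37). Ddb2, the sensor of ultraviolet lesions, was nearly equal on the treated arrays, at -0.42 on the A2-labelled array and -0.37 on the RA+D3V-labelled array, against -0.85 on the untreated array.

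Polk, a translesion polymerase, had -0.36 on the A2-labelled array, 0.14 on the RA+D3V-labelled array and 0.39 on the untreated array (A2 minus untreated -0.75, RA+D3V minus untreated -0.25), and its dimmer probe gave -0.04 for A2 and 0.74 for RA+D3V, so its direction on the RA+D3V-labelled array depends on the probe. Rrm2b, the p53-inducible subunit of ribonucleotide reductase, was dim, at -3.42 on the A2-labelled array, -3.85 on the RA+D3V-labelled array, where it was not well above background, and -3.13 on the untreated array. The difference on the A2-labelled array was -0.29, and the bound on the RA+D3V-labelled array was at least 1.65-fold lower than untreated.

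**Figure D4:**
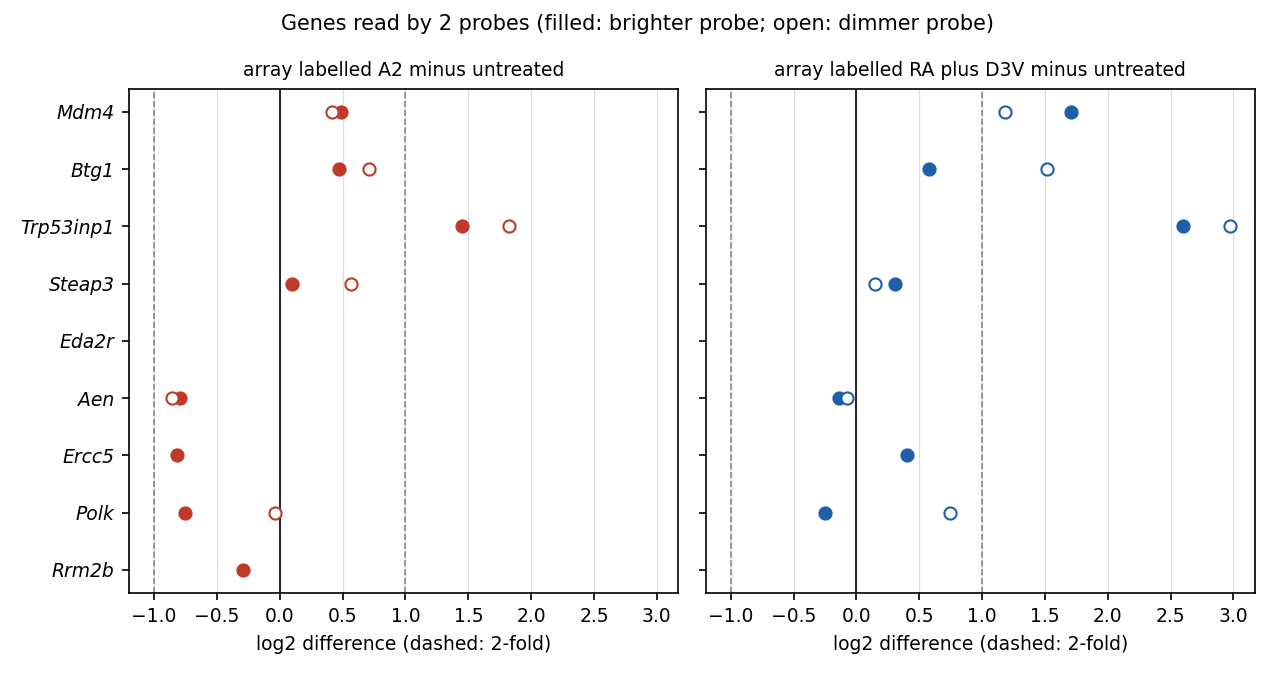
Log2 differences from the untreated array by the brighter and the dimmer probe, for the members with a pair of probes, on the A2-labelled array (left) and the RA+D3V-labelled array (right), with points for single probes on 1 array per condition. Trp53inp1 lies above 2-fold with both probes in both panels, the Btg1 probes are at 0.58 and 1.51 in the right panel, and those of Polk lie on opposite sides of 0 there.

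The control sources set a further limit on these sizes. Beyond the widest gap between them among the members, 0.57, lay 5 genes above and 8 below the untreated array on the A2-labelled array (18 of 31 within it), and 15 above and 3 below on the RA+D3V-labelled array (12 of 30 within it). Among all names, 0.57 stood at percentile 82.25 and -0.57 at percentile 17.5 on the A2-labelled array. On the RA+D3V-labelled array they stood at percentiles 82 and 16. Above 0 against both controls lay 13 members on the A2-labelled array and 22 on the RA+D3V-labelled array. Of all names 48% and 48.3% lay above 0 against the untreated array alone, and no share against both controls is at hand.

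Genes of the pathway outside the 34 were taken from a list of 52 other p53 targets, 50 of them on the array. On the A2-labelled array, 9 of 44 measured were at least 2-fold higher and 3 lower than untreated, with a median of 0.13. On the RA+D3V-labelled array, 12 of 45 were higher and 2 lower, with a median of 0.54. Between the treated arrays 7 of 46 were higher and 8 lower on the A2-labelled array (median -0.08), so the second list did not show the lower median that the 34 genes had (-0.51). The shares over all names were 7.96% higher and 6.4% lower for A2 against untreated. They were 7.82% and 5.04% for RA plus D3V against untreated, and 3.8% and 4.03% for A2 against RA plus D3V.

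The best known targets went different ways. Cdkn1a, the cell cycle inhibitor p21, had 4.81 on the A2-labelled array, 6.67 on the RA+D3V-labelled array and 5.85 on the untreated array, with a difference from untreated of -1.04 for A2 and 0.82 for RA+D3V. Its dimmer probes gave 0.25 and -0.72 on the A2-labelled array and 2.35 and 2.68 on the RA+D3V-labelled array, so its direction on the A2-labelled array depends on the probe. Bbc3, the BH3 protein Puma, differed from untreated by -0.31 for A2 and 1.08 for RA+D3V, Bax, the pore former, by 0.39 for A2 and 0.75 for RA+D3V, and Pmaip1, Noxa, by 0.65 for A2 and 0.11 for RA+D3V. Gdf15, a secreted stress cytokine, had 7.24 on the A2-labelled array, 1.04 on the RA+D3V-labelled array and -1.41 on the untreated array, a log2 difference of 8.65 on the A2-labelled array and 2.44 on the other. Trp53i11, another p53-induced gene, differed from untreated by 3.19 for A2 and -0.50 for RA+D3V.

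Upstream of p53, 14 of 16 kinases and damage sensors were measured. Of these none was 2-fold higher on either treated array and 1 was lower on each, Hus1 on the A2-labelled array (-1.05) and Nbn on the RA+D3V-labelled array (-1.02), with a median of -0.29 in both. Over all names 6.4% (A2-labelled array) and 5.04% (RA+D3V-labelled array) were lower, so 1 of 14 is near that share. The shares of all names higher were 7.96% and 7.82%. Chek1 and Brca1, a checkpoint kinase and a repair protein, were well above background on the A2-labelled array alone, at least 2.59-fold (Chek1) and at least 1.42-fold (Brca1) higher there than on the untreated array. The p53 family and other regulators had 1 higher and 1 lower of 23 on the A2-labelled array and 2 and 2 on the RA+D3V-labelled array (medians -0.26 for A2 and -0.17 for RA+D3V). Bcl6, a repressor of Trp53 in B cells, differed by -0.89 for A2 and 1.49 for RA+D3V.

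Factors other than p53 control many of the 34 genes, and lists of their targets give values to set beside Ccng2, Sesn3 and Trp53inp1. Of 14 FoxO factors and targets measured, 5 were higher and none lower on the A2-labelled array (median 0.81), and 7 and none on the RA+D3V-labelled array (median 0.83), with Il7r at 2.72 for A2 and 1.47 for RA+D3V and Pik3ip1 at 0.68 for A2 and 2.07 for RA+D3V. Of 11 ATF4 targets, 3 were higher and 0 lower on the A2-labelled array (median -0.50), and 2 higher and 3 lower on the RA+D3V-labelled array (median -0.57), and Ddit4, an mTORC1 inhibitor, had 3.44 for A2 and 3.14 for RA+D3V. Beside these counts, 7.96% of all names were higher and 6.4% lower on the A2-labelled array, and 7.82% and 5.04% on the RA+D3V-labelled array. The part of these factors in the members' differences was not tested.

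G2 and mitosis genes, which p53 is known to lower indirectly, had medians below 0 on both treated arrays. On the A2-labelled array, 6 of 18 were at least 2-fold lower (median -0.86), and on the RA+D3V-labelled array 15 of 18 (median -1.28), with Cdc20 at -1.41 for A2 and -1.89 for RA+D3V. All 18 had a higher value on the A2-labelled array than on the RA+D3V-labelled array, by 0.009 to 1.58 with a median of 0.46. Of these, 2 were at least 2-fold higher. Over all names 48.2% lay above 0 in that comparison and 3.8% were at least 2-fold higher. Gtse1, the member with a mitotic role, had the other order, with -1.20 for A2 and -0.47 for RA+D3V. Their part in the members' differences was not tested. Among 14 immediate early genes, 5 were higher and 3 lower on the A2-labelled array and 3 and 0 on the RA+D3V-labelled array, with medians of -0.18 for A2 and 0.25 for RA+D3V. The background for both lists is 7.96% higher and 6.4% lower on the A2-labelled array, and 7.82% and 5.04% on the RA+D3V-labelled array.

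Repair and death genes outside the members were counted as well. Over all names, 7.96% were at least 2-fold higher and 6.4% lower on the A2-labelled array. The shares on the RA+D3V-labelled array were 7.82% and 5.04%. Of 15 other nucleotide excision repair genes, none was higher and 2 were lower on the A2-labelled array (median -0.32), and 0 and 3 on the RA+D3V-labelled array (median -0.47), and between the treated arrays the median was -0.02, beside -0.67 for the member repair genes. Rrm1 and Rrm2, the partners of Rrm2b, differed from untreated by -0.27 (Rrm1) and 0.05 (Rrm2) on the A2-labelled array and by -0.29 and 0.25 on the RA+D3V-labelled array. Of 12 other death receptor and apoptosome genes measured, 2 were higher and none lower on the A2-labelled array, and none passed 2-fold on the RA+D3V-labelled array (medians 0.10 for A2 and -0.19 for RA+D3V). Eda, a ligand of the tumour necrosis factor family, was well above background on the untreated array alone and was at least 14.6-fold lower on the A2-labelled array and at least 14.25-fold lower on the RA+D3V-labelled array.

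Markers of cell types moved beside these genes. Of 14 myeloid and leukaemia markers 13 were well above background on all arrays, Hoxa9 among them, and Meis1, for which the cells are named, on none. Of these 13, 3 were at least 2-fold higher and 3 lower on the A2-labelled array, and 1 and 2 on the RA+D3V-labelled array. Their median differences from the untreated array were -0.12 (A2-labelled array, 5 of 13 above 0) and 0.19 (RA+D3V-labelled array, 8 of 13 above 0). The summed relative signal of the 14 was 1106.82 on the A2-labelled array, 1473.21 on the RA+D3V-labelled array and 1851.08 on the untreated array. Sums here add linear signals of different probes, so the brightest probes weigh most and a sum need not follow most markers. Monocyte and macrophage markers, 10 measured, were at least 2-fold higher for 6 on the A2-labelled array (median 1.34) and for 7 on the RA+D3V-labelled array (median 1.78), with 2 lower on each, and their summed relative signal was 321.02 on the A2-labelled array, 364.22 on the RA+D3V-labelled array and 139.01 on the untreated array. Of the 8 T and NK cell markers, 4 of 6 measured were lower on the A2-labelled array (median -1.60) and 3 of 5 on the RA+D3V-labelled array (median -1.18), with sums of 21.3 on the A2-labelled array, 15.4 on the RA+D3V-labelled array and 24.2 on the untreated array, and Klrb1c on none. Megakaryocyte and platelet markers, 7 on the array, had sums of 22.8 on the A2-labelled array, 29.8 on the RA+D3V-labelled array and 1.25 on the untreated array, 2 of 3 measured higher on the A2-labelled array and 3 of 3 on the RA+D3V-labelled array, and Itga2b, Gp1ba and Gp9 were above background on none. Of the B cell markers none of 4 measured passed 2-fold on either treated array, of the erythroid markers 2 of 4 were lower on the A2-labelled array and 1 of 3 on the RA+D3V-labelled array, and of the stromal and endothelial markers 0 of 3 were higher on the A2-labelled array and 1 of 3 on the RA+D3V-labelled array. The background for the marker counts is 7.96% higher and 6.4% lower on the A2-labelled array, and 7.82% and 5.04% on the RA+D3V-labelled array. The part of these cell types in the members' differences was not tested.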

How the data were processed

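Per the labels' protocols, 50 ng of total RNA freed of DNA was labelled with Cy3. Per the file headers, the deposited scanner files hold the intensity of each spot from Agilent Feature Extraction 11.5.1.1, corrected for background and spatial trend, not scaled between arrays, and the authors' flags (0 or 1, an other unit) mark spots well above background, saturated or uneven. All 3 arrays sat on the same slide and were scanned together. The authors' value table also gives intensity, linear and quantile normalized (99.9% of sorted values equal within 0.01%).

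Control spots and 25 uneven spots were left out. Spots of a probe were averaged, log2 values were taken minus the array's 75th percentile, and a gene was read from its brightest probe over the 3 arrays. Array gene names were used unchanged. A probe well above background on 1 array gave a bound: its signal over the larger of the other array's signal and the lowest signal well above background there. The members, lists and naming rule (all 34 members, from each list at most the 3 highest and 3 lowest, and Cdkn1a, Bax, Bbc3, Pmaip1 and Gdf15) were chosen with earlier results of these data known. Hoxa9, Meis1, Cyp24a1 and Cyp26a1 were named to check the labels. The steps were tested on simulated data. Alternatives were 10, including normexp (limma 3.58.1, offset 50). Tools were Python 3.11.15, pandas 2.3.3 and R 4.3.3. A gene that the naming rule takes is not reported here.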

Additional observations from a re-analysis of the deposited data

How the results depend on the processing

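No paired analysis was possible because each condition has 1 array. Scaling to the median of detected probes, quantile normalization, no filter on dim probes, and the median over a gene's probes gave the counts of the main setting within 1.5 times. Leaving out probes with G and T runs (minimum 8 bases) removed no member, as the longest run among them was 7, so it could not change a count. For the A2-labelled array against untreated (4 higher, 2 lower, median -0.21), normexp gave 3 higher and 1 lower. With the value table's control as untreated 1 was lower, and at a threshold of 1.5-fold 8 were lower. For the RA+D3V-labelled array against untreated (8 higher, 0 lower, median 0.56), normexp gave 5 higher, and 1.5-fold gave 14 higher and 3 lower. For A2 against RA plus D3V (1 higher, 9 lower, median -0.51), members above background on all 3 arrays gave 0 higher, since Plk2 is left out, and 1.5-fold gave 3 higher and 15 lower. The value table with its own labels, where the treated arrays are exchanged, turned the medians to 0.55, -0.14 and 0.55. Its counts were 9 higher and 0 lower (A2 against untreated), 4 higher and 1 lower (RA plus D3V against untreated), and 10 higher and 1 lower (A2 against RA plus D3V). Under its labels Sesn3, Phlda3 and Zmat3 had -0.31, -0.97 and -0.29 for RA plus D3V against untreated, and for A2 against RA plus D3V the values were 1.23 for Mdm4, 1.34 for Btg2, -4.29 for Plk2, 1.24 for Trp53inp1, 1.42 for Sesn3, 2.33 for Phlda3, 1.55 for Zmat3, 1.22 for Fas, 1.44 for Tnfrsf10b and 1.21 for Ercc5. The median difference of all genes was -0.11 against the value table's control for each treated array, and 0.19 (RA plus D3V against untreated) and -0.17 (A2 against RA plus D3V) with no filter on dim probes. The causes were not tested. Signal over background limits Plk2, Perp and Rrm2b to bounds and leaves Eda2r without a value.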

Other observations

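Members with a half-site and members without it had different medians on the RA+D3V-labelled array. The split was looked at after the values of the genes were known and is given with no test. Of the 11 genes with a half-site, 0 were at least 2-fold higher than untreated, with a median log2 difference of -0.13, a lowest value of -0.68 (Ppm1d) and a highest of 0.83 (Ccng1). Over all names 7.82% were at least 2-fold higher, so 0 of 11 is near that share. Of the 16 without one, 14 were measured and 6 of these were at least 2-fold higher, with a median of 0.73, a lowest value of -0.39 (Plk3) and a highest of 1.70 (Mdm4). On the A2-labelled array the medians were -0.47 with a half-site and 0.21 without, and for A2 minus RA plus D3V they were -0.48 and -0.25. The search covers these promoter windows alone and leaves out the 7 genes with no promoter in the table, Trp53inp1 and Zmat3 among them. Values of all genes split by half-site are not at hand, so the split says nothing of half-sites in general.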
